A study of Mus musculus with 13 samples.

Results

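Stroma 2 is 1 of the 15 cluster labels in the deposited annotation of mouse kidney nuclei profiled by single nuclei ATAC-seq (snATAC-seq), an assay in which a transposase marks open chromatin nucleus by nucleus. Its members were taken by that label, and they numbered 3539 of the 28316 annotated nuclei, or 12.5%. The question here was which regions and genes of these stromal nuclei were more open in the newborn kidney and which in the grown kidney. Newborn kidneys (P0) gave 2 samples, with 1309 and 1145 stroma 2 nuclei. The adult side consisted of 1 sample taken at 3 weeks (P21, 206 nuclei) and 2 samples taken at 8 weeks (P56, 535 and 344 nuclei). All were whole kidneys of mice, and neither the genotype, strain nor sex of these samples, nor any treatment, nor the number of animals behind each sample, is given in the labels, so the p-values measure the spread between these samples. The P0 label goes with a protocol that speaks of 1-day-old animals. Adult animals were perfused and their kidneys lysed in a larger volume than the P0 kidneys, so that stage and preparation cannot be told apart.

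The stroma of the kidney fills the space between tubules, vessels and glomeruli. Much of it arises from Foxd1-expressing progenitors, which give rise to interstitial fibroblasts, pericytes, mesangial cells and renin cells. In the forming kidney the stroma sends signals that balance renewal and differentiation of the nephron progenitors, and in the grown kidney interstitial fibroblasts maintain matrix, make erythropoietin and respond to circulating hormones.

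Each nucleus carried, at each of 300755 peaks, a call of open or closed. Open calls were summed over the stroma 2 nuclei of a sample, and a gene's activity was the sum over peaks that overlap its body or the 2 kb upstream of it, given as CPM, its open calls per 1000000 calls counted over all genes after edgeR's TMM scaling. A log2 difference is P0 minus adult throughout. The standard error beside it was derived from edgeR's quasi-likelihood test, as the absolute log2 difference over the square root of the F statistic. A peak or gene was called when its Benjamini-Hochberg adjusted p fell under 0.05. Unless stated otherwise, 5 values in a row belong to P0 sample 1, P0 sample 2, P21, P56 sample 1 and P56 sample 2. The summed open calls ran from 9003908 to 9479984 at P0 and from 878544 to 1879672 in adult, and the median nucleus had 6930 and 7624 open peaks at P0 against 3311 to 3466 in adult. Folds and CPM are scaled for this depth. A percentage of nuclei is not, so that a peak can be open in a like share of nuclei at both stages and still have a fitted fold in favour of the adult.

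The nuclei carried the marks of stroma at both stages. On the same scale without the TMM factor, the summed activity of 16 stromal marker genes was 1215, 1169, 1181, 1173 and 1100 CPM, against 328 to 538 CPM in endothelial nuclei and 130 to 248 CPM in proximal tubule nuclei. At P0 it was 650 and 592 CPM in nephron progenitors and 591 and 534 CPM in podocytes. In stroma 1, the second stromal cluster, it was 1255 and 1222 CPM at P0. Between stages the marker sum of stroma 2 stayed within 1100 to 1215 CPM. Its members went both ways, with 5 of the 16 called higher at P0 and 3 in adult. These are 31.25% and 18.75%, against 21.1% and 17.1% of all genes tested. The sum of 16 proximal tubule markers was 301, 304, 399, 252 and 465 CPM, and in proximal tubule nuclei it was 1462 to 2424 CPM. It was highest in the P21 sample and in P56 sample 2. The same pair had no open call at the Y-linked genes Ddx3y, Uty, Kdm5d and Eif2s3y, whereas the other 3 samples had, and 42.3% and 43.6% of their open calls lay in start-site peaks against 36.6% to 38.8% in the others. The sum of 10 nephron progenitor genes was higher at P0, with 518 and 487 CPM against 323, 277 and 255 CPM in adult, and that of 12 collecting duct genes was 141 and 146 CPM against 84.9 to 115 CPM. In the stroma 1 cluster both were also higher at P0, with 491 and 479 against 236 to 289 CPM and 162 and 160 against 69.6 to 127 CPM. In endothelium they were higher at P0 too, with 296 and 290 against 196 to 270 CPM and 82.9 and 85.8 against 41.5 to 62.0 CPM. Podocytes, loop of Henle and distal convoluted tubule also had both sums higher at P0 without overlap. In immune nuclei both overlapped between stages, and in principal cells the progenitor sum did. Of the progenitor genes, Meox1 is also among the 16 stromal markers. The sums of stroma 2 move with the genes called higher at P0 below, and their part in those calls was not tested. The sums of podocytes (10 genes, 773 and 780 CPM against 609 to 711), immune cells (13 genes, 102 and 104 against 70.5 to 82.8) and glia and neurons (11 genes, 127 and 138 against 89.3 to 109.7) were also higher at P0, that of endothelium was lower (13 genes, 550 and 560 against 618 to 690), and that of loop and distal tubule overlapped (11 genes, 280 to 408). The B cell marker Cd79a was at 0 in all 5 samples, and Foxi1 of intercalated cells and C1qa of macrophages were each at 0 in 3. Barcodes, compared over all 5 samples together without their suffix, occurred more than once. Of the stroma 2 nuclei 10 had a barcode that another stroma 2 nucleus also had, and 138 had one in common with any other nucleus. Matches between different samples are part of these counts and were not split off.

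The regions at the ends of the comparison are shown first. The 6 windows below are the central 240 bases of the peaks of largest fold that lie more than 2 kb from any annotated start, 3 higher at P0 and 3 higher in adult, on the plus strand of GRCm38, with capitals marking the letters of any of 32 searched transcription factor motifs. They are named by the nearest coding gene, which says nothing of the gene a region acts on. The Syn3 window (chr10:86567009-86567248) is intergenic and 68.2 kb from the start of Syn3, which encodes a synapsin. The Synpo2 window (chr3:123185587-123185826) lies in an intron of Synpo2, an actin-binding protein, and the Fam196a window (chr7:134899682-134899921) in an intron shared by the annotations of Fam196a and Dock1. The Tnfrsf8 window (chr4:145281163-145281402) lies in an intron of Tnfrsf8, the receptor CD30. The Pik3r1 window (chr13:102114229-102114468) is intergenic and 346 kb from the start of Pik3r1, a regulatory subunit of phosphoinositide 3-kinase. The Ankrd44 window (chr1:54678263-54678502) lies in an intron of Ankrd44, an ankyrin repeat protein.
Syn3, higher at P0: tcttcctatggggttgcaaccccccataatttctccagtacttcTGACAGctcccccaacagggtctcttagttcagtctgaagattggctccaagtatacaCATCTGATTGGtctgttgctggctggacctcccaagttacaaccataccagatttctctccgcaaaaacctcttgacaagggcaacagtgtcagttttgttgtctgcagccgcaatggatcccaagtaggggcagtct
Synpo2, higher at P0: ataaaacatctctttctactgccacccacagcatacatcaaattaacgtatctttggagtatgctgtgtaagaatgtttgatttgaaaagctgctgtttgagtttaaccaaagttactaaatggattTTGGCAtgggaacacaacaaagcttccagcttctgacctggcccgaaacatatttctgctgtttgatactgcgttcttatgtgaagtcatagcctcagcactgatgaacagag
Fam196a, higher at P0: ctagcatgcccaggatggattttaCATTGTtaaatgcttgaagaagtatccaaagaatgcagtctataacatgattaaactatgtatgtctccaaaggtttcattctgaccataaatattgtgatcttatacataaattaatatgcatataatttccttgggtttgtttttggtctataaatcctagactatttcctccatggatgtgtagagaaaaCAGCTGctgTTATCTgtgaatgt
Tnfrsf8, higher in adult: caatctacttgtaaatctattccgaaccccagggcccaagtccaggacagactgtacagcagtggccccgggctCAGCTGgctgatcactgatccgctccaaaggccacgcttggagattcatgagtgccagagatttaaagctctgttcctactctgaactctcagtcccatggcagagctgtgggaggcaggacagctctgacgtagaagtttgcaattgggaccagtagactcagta
Pik3r1, higher in adult: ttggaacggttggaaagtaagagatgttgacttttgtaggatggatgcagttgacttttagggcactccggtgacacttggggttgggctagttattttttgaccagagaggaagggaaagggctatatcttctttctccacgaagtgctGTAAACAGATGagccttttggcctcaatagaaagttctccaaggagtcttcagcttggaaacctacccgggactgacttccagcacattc
Ankrd44, higher in adult: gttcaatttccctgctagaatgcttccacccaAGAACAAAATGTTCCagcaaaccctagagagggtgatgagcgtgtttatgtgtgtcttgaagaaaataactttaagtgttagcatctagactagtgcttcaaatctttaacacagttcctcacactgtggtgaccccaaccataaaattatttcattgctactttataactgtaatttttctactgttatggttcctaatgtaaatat

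The P0 windows held letters of the E-box, Meis, NF-Y, NFI, SOX and GATA motifs. Of the adult windows, that of Tnfrsf8 also held an E-box, and that of Pik3r1 an E-box and the forkhead letters. The Ankrd44 window held, from its base 33, the letters AGAACAAAATGTTCC of the full palindromic site to which steroid hormone receptors bind. A match of letters is not evidence of binding.

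The 10 peaks of largest fold at P0 had no open call in any adult sample. The Syn3 peak was open in 21.8% and 22.5% of P0 nuclei and in 0 of the 1085 adult nuclei, which allows a share of up to 0.276% by counting error alone. Against a floor of 3 open calls over the adult samples it was at least 41.6-fold higher at P0. The Synpo2 peak was open in 19.8% and 23.3% of P0 nuclei (at least 40.2-fold), and the Fam196a peak in 20.8% and 21.3% (at least 39.4-fold). Peaks without overlap between the stages were chosen, so that the gap between P0 and adult samples at the named peaks describes the choice. The remaining 7 were open in 12.8% to 18.4% of P0 nuclei and were at least 26.4-fold to 33.5-fold higher. They lay nearest to Mdh1, Otud1, Hsp90b1, Pax3, Mdga2, Eno1b and Adgrl3. The P0 nuclei of stroma 1, the second stromal cluster, had the Synpo2 peak open in 12.6% and the Syn3 peak in 2.03%.

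**Figure D1:**
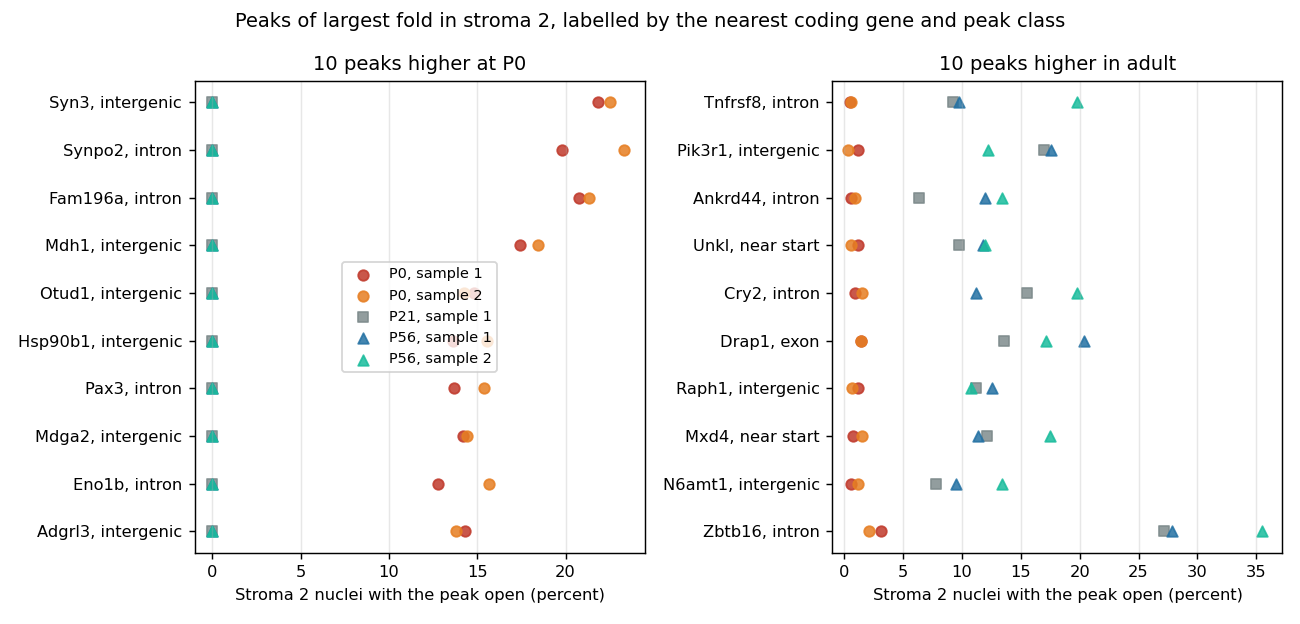
Share of stroma 2 nuclei with the peak open (percent, x axis) in each of the 5 samples, for the 10 peaks of largest fold in each direction, labelled by the nearest coding gene and the class of the peak. All adult symbols of the left panel lie at 0, and in the right panel the P0 symbols lie between 0.349% and 3.13% while the adult ones lie between 6.31% and 35.5%.

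Among the peaks higher in adult, the intronic Zbtb16 peak had the lowest adjusted p of the 10 of largest fold. It was open in 3.13% and 2.10% of P0 nuclei and in 27.2%, 27.9% and 35.5% of adult nuclei, a log2 difference of -4.44 ± 0.22 (adjusted p = 1.46e-12). The Tnfrsf8 peak went from 0.458% and 0.611% at P0 to 9.22%, 9.72% and 19.8% in adult (log2 difference -5.49 ± 0.38), and the Pik3r1 peak from 1.15% and 0.349% to 17.0%, 17.6% and 12.2% (-5.25 ± 0.34). The Ankrd44 peak was open in 0.611% and 0.873% of P0 nuclei and in 6.31%, 11.96% and 13.4% of adult nuclei (-4.83 ± 0.36). Of these 4, the Tnfrsf8 peak spanned the widest range of adult shares. One of the 10, in an intron of the clock repressor Cry2, was open in 0.917% and 1.48% at P0 and in 15.5%, 11.2% and 19.8% in adult. These peaks were picked for their size from 4675 peaks at P0 and 3244 in adult that met the same conditions, so their folds describe the ends of the distribution.

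Over all 53951 peaks tested, 14288 were called higher at P0, which is 26.5% of those tested, and 12806 higher in adult, which is 23.7%. A difference of more than 4-fold was found at 5984 and 3538 of them, and the median log2 difference was 1.75 for the P0 calls and -1.39 for the adult calls. In 98.9% of the P0 calls and 91.3% of the adult calls no sample of one stage reached into the range of the other, and the same held for 62.7% of all tested peaks and for 29.8% of those without a call. At 419 of the peaks called higher at P0 no adult nucleus had an open call, whereas none of the peaks called higher in adult was at 0 in P0. The adult sums are 4.79 to 10.8 times shallower, so an adult 0 is a weaker statement than a P0 0.

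The called peaks differed in where they lie. Of the P0 calls 38.9% were intergenic, against 25.7% of the adult calls and 24.6% of the tested peaks without a call. Peaks over a transcription start made up 14.6% of the P0 calls, 20.7% of the adult calls and 36.6% of the peaks without a call, and introns held 33.5%, 35.99% and 24.7%. The central 300 bases had a median GC content of 47.3%, 50.3% and 53.0% in the same order. The P0 calls were thus the most distal group and the lowest in GC, while regions at starts tended not to be called.

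The letters of transcription factor motifs were unevenly spread between the 2 directions. GLI proteins, the transcription factors of Hedgehog signalling, bind TGGGTGGTC, and these letters on either strand lay in the central 300 bases of 0.756% of the P0 calls, 0.234% of the adult calls, 0.264% of the peaks without a call and 0.267% of all peaks. The full site of the steroid receptors, which serves the glucocorticoid, mineralocorticoid, androgen and progesterone receptors, went the other way, with 0.147% of the P0 calls, 1.05% of the adult calls, 0.205% of the peaks without a call and 0.314% of all peaks. By the ratio of the P0 to the adult share these were the most uneven of the 32 motifs in each direction, at 3.22 and 0.14, while in percentage points the E-boxes CAGCTG (6.53) and CAGGTG (-6.16) differed most. Over whole peaks the shares at P0 and in adult were 1.61% and 0.617% for GLI and 0.476% and 2.20% for the steroid receptors, and among peaks more than 2 kb from any start they were 0.783% and 0.208%, and 0.153% and 1.25%.

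Motifs of patterning factors leaned to P0. The letters TGATTNAT of Hox and Pbx factors were found in 7.13% of the P0 calls, 4.20% of the adult calls and 5.55% of all peaks, and those of TCF and LEF (CTTTGAT), which carry Wnt signals, in 5.33%, 3.31% and 5.19%. Of the E-boxes, CAGCTG was present in 29.5% of the P0 calls, 23.0% of the adult calls and 19.8% of all peaks, and CATCTG in 26.0%, 20.3% and 22.8%. Another E-box, CAGGTG, was less frequent in the P0 calls, with 9.52%, 15.7% and 18.5%, while the adult calls were level with the 15.8% of peaks without a call. AP-1 (TGANTCA), the motif of Fos and Jun, was held by 8.86% of the P0 calls, 11.2% of the adult calls and 10.5% of all peaks, and the core letters of NFI (TTGGCA) by 16.0%, 19.6% and 17.9%. The letters AAAGGTCA, bound by many nuclear receptors, were in 1.67%, 2.74% and 2.26%. Among tested peaks without a call the shares were 3.63% for Hox and Pbx, 3.39% for TCF and LEF, 23.5% for CAGCTG and 19.5% for CATCTG. They were 7.84% for AP-1, 14.8% for the NFI core and 1.60% for AAAGGTCA, so that the P0 calls also lay above these peaks for AP-1 and NFI. Among peaks more than 2 kb from any start that order turned. There AP-1 was held by 9.89% of the P0 calls and 10.4% of the peaks without a call. For the NFI core these shares were 17.2% and 18.7%. The groups differ in GC, and the part of base composition in these shares was not tested.

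**Figure D2:**
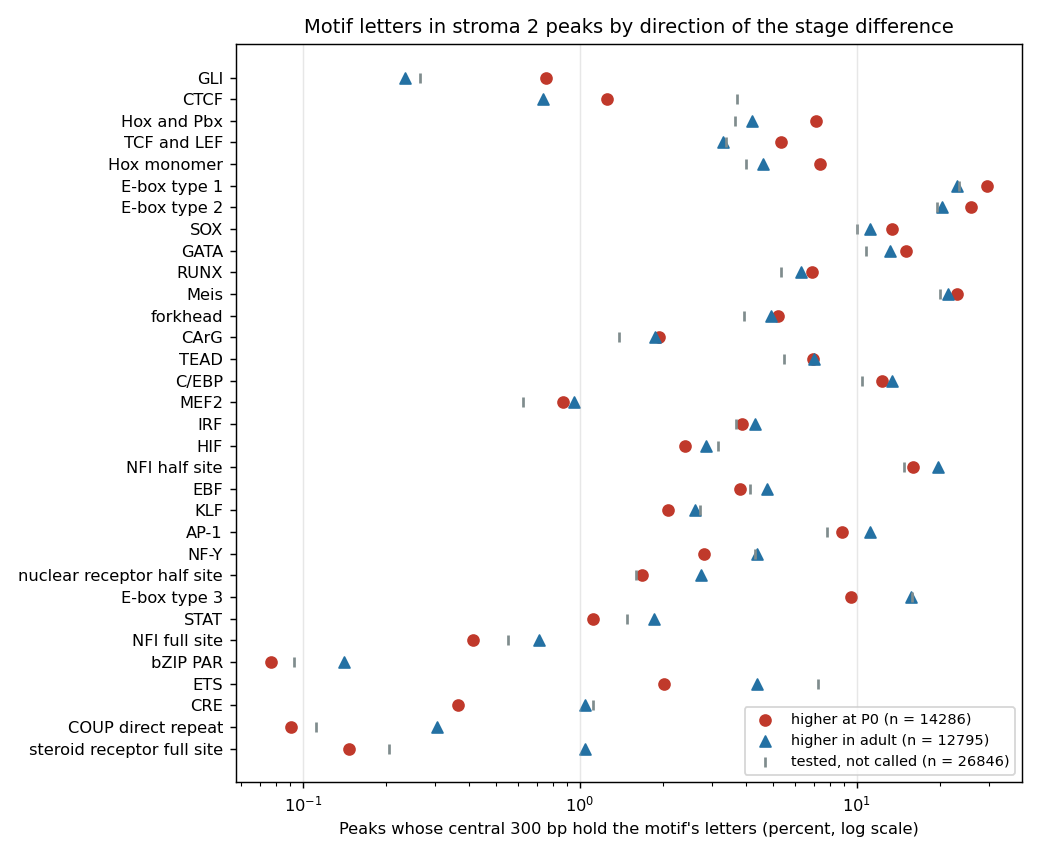
Percent of peaks (x axis, log scale) whose central 300 bp hold the letters of each of 32 motifs on either strand, for peaks called higher at P0 (circles), called higher in adult (triangles) and tested without a call (bars); E-box type 1 is CAGCTG, type 2 is CATCTG and type 3 is CAGGTG. GLI stands at the top, with 0.756% against 0.234%, and the steroid receptor full site at the bottom, with 0.147% against 1.05%.

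At the level of genes, 4378 of 20780 tested had higher activity at P0, or 21.1%, and 3543 were higher in adult, or 17.1%. Differences of more than 4-fold were more frequent towards P0, with 621 genes against 131, and the median log2 difference was 1.103 among the P0 calls and -0.62 among the adult calls. Over all genes tested the median was 0.0028. The samples of the stages did not overlap at 99.3% of the P0 calls, 96.8% of the adult calls and 58.4% of all genes tested, so that a gap between the stages adds little to a call.

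Genes of largest fold were sought among called protein-coding genes with at least 50 CPM in the higher stage and no overlap between stages, so their separation follows from the choice. Towards P0 the first of 12 was Tnnt3, a troponin T of skeletal muscle, with 53.6, 49.6, 0, 9.02 and 4.96 CPM (log2 difference 3.19 ± 0.31, adjusted p = 4.81e-06). Its 7 peaks include 5 that also fall in the window of another gene. Mfap4, a microfibril-associated protein of elastic fibres, had 68.3 and 68.7 CPM at P0 and 5.75, 10.1 and 6.38 CPM in adult (3.12 ± 0.21), and the peak over its start was open in 39.4% and 44.7% of P0 nuclei against 0.872% to 2.06% of adult nuclei. Gap43, the growth-associated protein of extending axons, had 57.7, 51.8, 8.05, 8.46 and 3.55 CPM (3.03 ± 0.24). Of these genes Tnnt3 alone was at 0 in an adult sample. The neurotensin receptor Ntsr1 was at 61.4 and 57.7 CPM at P0 and at 1.15, 14.7 and 4.96 CPM in adult (2.83 ± 0.30), so that its adult samples differed among themselves too. The others of these 12 were Nkain4, Lrrtm4, Ano4, Ntng1, Pak7, Fam196a, Adcy2 and Col24a1, with log2 differences of 2.42 to 3.01. Lrrtm4 (a synaptic adhesion protein) and Ntng1 (a netrin) are, like Gap43, best known from neurons.

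Towards the adult, Zbtb16 had the lowest adjusted p of the 12 genes chosen in the same way. It encodes PLZF, a zinc finger repressor known as a target of the glucocorticoid receptor, and had 141 and 134 CPM at P0 against 634, 677 and 738 CPM in adult (-2.31 ± 0.13, adjusted p = 1.46e-07). Mt1, a metallothionein that binds zinc and copper, had 9.52, 10.1, 36.8, 37.8 and 77.3 CPM (-2.38 ± 0.27). Cp, ceruloplasmin, the copper-carrying ferroxidase, had 22.7, 16.4, 78.2, 98.1 and 121 CPM (-2.36 ± 0.18). Both Mt1 and Cp were highest in P56 sample 2. Adap2 had 35.1 and 28.3 CPM at P0 and 149, 143 and 196 CPM in adult (-2.36 ± 0.17). The flavin monooxygenase Fmo2 had 15.3 and 14.6 CPM at P0 and 48.2 to 70.5 CPM in adult (-1.95 ± 0.18). Further genes of the 12 were Pde4c, Tnfrsf8, Unkl, Ankrd44, Slc45a3 and Zc3h12a, with log2 differences of -1.87 to -1.71.

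**Figure D3:**
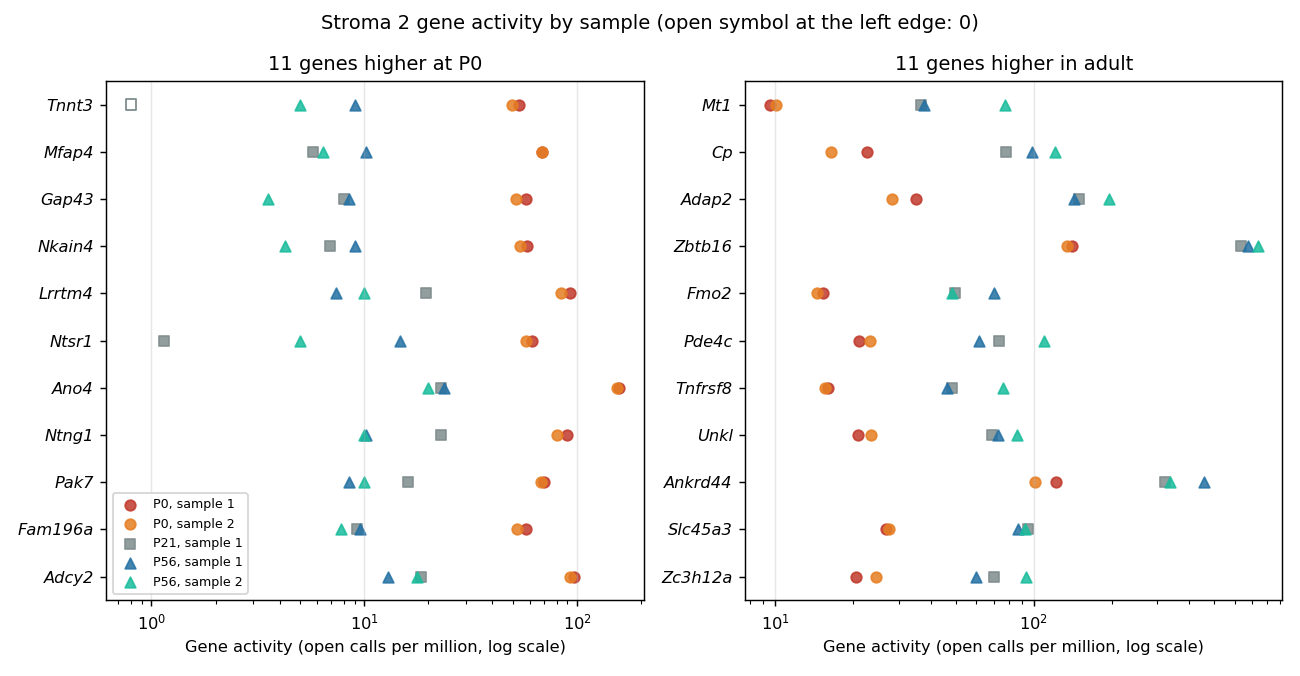
Gene activity in stroma 2 (CPM, x axis, log scale) in the 5 samples for 11 genes of largest fold in each direction among those with at least 50 CPM in the higher stage and no overlap between stages, a choice that sets the gap between P0 and adult. The values lie, for example, at 68.3 and 68.7 against 5.75 to 10.1 for Mfap4 and at 141 and 134 against 634 to 738 for Zbtb16.

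Gene lists were next compared, each with the shares of 21.1% and 17.1% that held over all genes. These shares belong to the main fit. Over all genes, 1560 and 1135 of 15516 were called with thinned nuclei and 2884 and 2498 of 17283 with promoter windows. Without P56 sample 1 the totals were 5530 and 5364 of 23074, and without either P0 sample fewer genes were called. List counts under an alternative move with these totals and are not results about the list alone. Of 42 tested genes of the stromal progenitors and the nephrogenic interstitium, 15 were higher at P0 and 3 in adult, with a median log2 difference of 0.32. Tbx18, a T-box factor of ureteral and interstitial mesenchyme, had 40.7, 37.9, 3.45, 10.7 and 11.3 CPM (2.07 ± 0.25, adjusted p = 2.23e-05). Fat4, the protocadherin through which stroma restrains nephron progenitor renewal, had 141 and 127 CPM at P0 and 59.8, 59.2 and 36.2 CPM in adult (1.38 ± 0.17), and an intronic Fat4 peak was open in 13.1% and 12.9% of P0 nuclei but had only 3 open calls in adult, a ratio of 24.5 with an exact 95% counting interval of 8.37 to 119. In CPM the P0 samples of Fat4 were apart from the adult ones, as at 99.3% of the genes called higher at P0. Crabp1 and Penk, which mark subsets of immature interstitium, were higher by 2.05 ± 0.37 and 1.46 ± 0.20. Tcf21, a helix-loop-helix factor of kidney mesenchyme, had 104 and 99.4 CPM at P0 against 49.4 to 68.2 CPM (0.74 ± 0.15), while one upstream Tcf21 peak went from 29.4% and 30.7% of P0 nuclei to 2.91%, 4.30% and 3.20% of adult nuclei (2.08, adjusted p = 2.0e-07).

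Not every progenitor gene took part. Foxd1 itself had 27.3, 23.7, 24.1, 18.04 and 12.1 CPM, with the P21 sample inside the P0 range, and its difference of 0.56 ± 0.23 did not pass (adjusted p = 0.067). Meis1, a homeobox factor of stroma at all ages, had 213 and 202 CPM at P0 and 172 to 223 CPM in adult (0.05 ± 0.14, adjusted p = 0.781). The 3 called towards the adult were Ntn4 (-0.63), Snai2 (-0.49) and Nr2f2 (-0.42), of which Nr2f2 encodes the nuclear receptor COUP-TFII. With only promoter windows counted, 7 of the list were called higher at P0 in place of 15, and the count in adult was 0 with thinned nuclei and 5 without P56 sample 1. Of the 22 Hox genes of the posterior trunk, 2 were called in each direction, and with loess offsets 7 were higher at P0.

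Of 17 Hedgehog pathway genes 9 were higher at P0 and none in adult (median 0.42). The list holds ligands, receptors, the transducer and the GLI factors. None of the ligands Shh, Ihh and Dhh was called, with 4.51 to 10.3 CPM, 10.7 to 22.0 CPM and 18.4 to 25.5 CPM. Hhip, a membrane antagonist that is itself induced by the pathway, had 59.2, 66.4, 26.4, 22.5 and 17.0 CPM (1.54 ± 0.17, adjusted p = 1.56e-05). Gli2, the main activator, had 371 and 361 CPM at P0 and 140, 175 and 87.9 CPM in adult (1.44 ± 0.19). Smo, the signal transducer, was higher by 0.89 ± 0.16. The values of Hhip and Gli2 at P0 exceeded every adult value, and 99.3% of the genes called higher at P0 had no overlap between stages. Gli1 (0.42 ± 0.14) and the receptor Ptch1 (0.37 ± 0.13), whose transcription reports pathway activity, differed less, with Gli1 at 75.1 and 83.3 CPM against 56.7 to 62.0 CPM. Without P0 sample 1 the count higher at P0 was 4, and without P56 sample 1 it was 8, with 3 higher in adult.

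A peak of the Hedgehog receptor Ptch1 held the GLI letters and is shown because the motif leaned to P0 over all peaks. It was chosen after its values were seen, and lies outside untranslated regions. Of the peaks in windows of Hedgehog genes, GLI letters lay in 3 of the 29 called higher at P0, 0 of the 14 called higher in adult and 1 of the 33 without a call. The window is 120 bases of the plus strand of GRCm38 around the match, upstream of a Ptch1 start (chr13:63566379-63566498), with the GLI letters, reversed and complemented, in capitals.
Ptch1, higher at P0: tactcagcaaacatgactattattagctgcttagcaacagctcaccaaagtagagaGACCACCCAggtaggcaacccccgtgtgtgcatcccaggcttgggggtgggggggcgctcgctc
The Ptch1 peak was open in 22.5% and 25.3% at P0 and in 5.83%, 8.41% and 6.10% in adult (0.80 ± 0.21). It was taken from the peaks called higher at P0, and these shares are not scaled for depth.

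Wnt genes of the stroma were split. Of 37 tested, 14 were higher at P0 and 4 in adult (median 0.23), and without P0 sample 2 the count at P0 was 7. The secreted Wnt antagonist Sfrp2 had 26.8, 26.9, 5.75, 5.64 and 7.80 CPM (2.06 ± 0.26), and Lef1, a nuclear mediator of the pathway, had 50.4 and 51.6 CPM at P0 and 15.8 to 29.9 CPM in adult (1.36 ± 0.19). Axin2, a widely used target, was higher by only 0.44 ± 0.15. The ligand Wnt9b had 10.2 and 10.8 CPM at P0 and 25.3, 37.8 and 50.4 CPM in adult (-1.90 ± 0.23). It is known from the ureteric bud rather than from stroma. Dkk3, a secreted protein of the Dickkopf family, had 91.9, 80.5, 161, 215 and 223 CPM (-1.23 ± 0.15), a difference that turned to 0.19 and was not called when only promoter windows of Dkk3 were counted.

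Growth and differentiation factors went in both directions. Gdnf, the ligand that draws out the ureteric bud, had 45.5, 37.7, 8.05, 6.20 and 4.96 CPM (2.75 ± 0.25, adjusted p = 3.53e-06). Fgf10 and Fgf7, which signal from mesenchyme to epithelium, were higher by 1.21 ± 0.24 and 1.04 ± 0.24. In the list of FGF and PDGF genes, 6 of 29 were higher at P0 and 7 in adult (median -0.24), and the adult calls included both PDGF receptors, Pdgfrb at -0.52 ± 0.13 and Pdgfra at -0.36 ± 0.14. With promoter windows neither receptor was called (-0.14 and -0.20), and with the replicate number as a block Pdgfra was not (adjusted p = 0.0723). Of 41 TGF-beta and BMP genes, 11 were higher at P0 and 8 in adult (0.11). Tgfb2 was higher at P0 (0.90 ± 0.17) and Bmp4, Smad3 and Id3 in adult (-0.52, -0.79 and -0.71). Without P56 sample 1 the adult count of that list was 14, and without P0 sample 1 the counts were 4 and 1. For FGF and PDGF the counts without P0 sample 1 were 3 and 3, and the adult count without P56 sample 1 was 11.

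Of 29 genes of the postnatal growth network, a set of mostly imprinted or fetal growth genes, 12 were higher at P0 and 3 in adult (median 0.35). The count at P0 was 6 with thinned nuclei and 18 with P56 sample 1 as the only adult sample. Igf2, the fetal insulin-like growth factor, had 33.6, 38.6, 8.05, 10.7 and 4.96 CPM (2.15 ± 0.25), with all 8 of its peaks also in another gene's window. Igfbp2, which binds it, was higher by 2.36 ± 0.29, and Hmga2, an architectural chromatin protein of growing tissues, had 138 and 128 CPM at P0 and 42.5 to 72.4 CPM in adult (1.34 ± 0.17). The 3 genes higher in adult were Peg3, Igf1r and Igfbp5, with -0.55, -0.53 and -0.43, none of which was called with promoter windows. Peg3 turned to 0.64 without a call when only peaks of a single gene were counted. Of 37 cell cycle genes 7 were higher at P0 and 3 in adult, counts that were 1 and 0 without either P0 sample and 6 and 7 without P56 sample 1. Mki67 was higher by 0.59 ± 0.17 while Top2a was not called (-0.36 ± 0.15).

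Genes of axon guidance and neural cues had the highest median of the 18 lists. Of 34, 18 were higher at P0 and 3 in adult (median 0.46), and without P0 sample 1 the count at P0 was 12, with promoter windows it was 11, and with P56 sample 1 as the only adult sample 8 were higher in adult. Dcc, the netrin receptor, had 78.1, 75.1, 21.8, 14.7 and 15.6 CPM (2.20 ± 0.18, adjusted p = 1.34e-06). The ephrin receptor Epha3 had 157 and 140 CPM at P0 and 34.04 to 43.4 CPM in adult (adjusted p = 1.28e-06), and the secreted semaphorin Sema3c 103 and 104 CPM against 24.8 to 42.5 CPM (1.82 ± 0.18). At each of the 3 genes the P0 samples were above all adult samples, a gap without overlap that 99.3% of the P0 gene calls had. Slit2 (0.64) and its receptor Robo1 (0.55) differed less. The genes higher in adult included Nrp2 (-0.80) and Plxnd1 (-0.67), receptors of semaphorins.

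**Figure D4:**
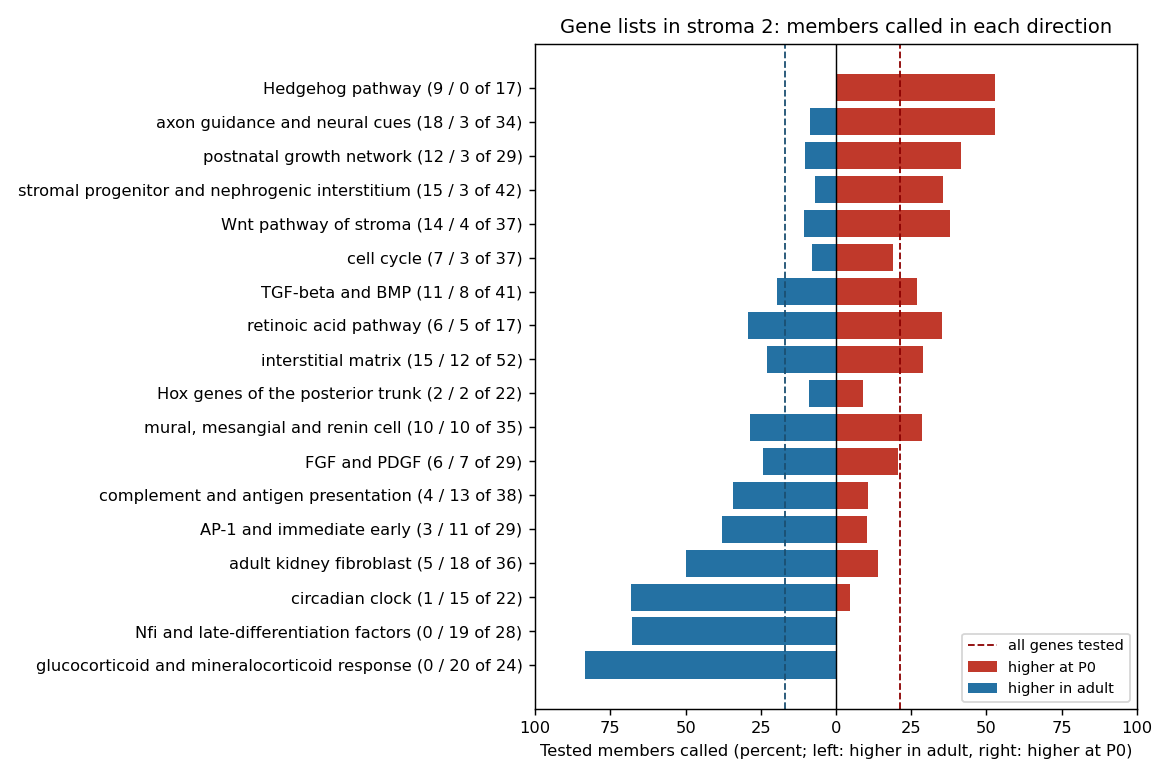
Percent of the tested members of 18 gene lists called higher at P0 (right, red) or higher in adult (left, blue) in stroma 2, with counts beside the list names and dashed lines at the shares over all genes tested, 21.1% and 17.1%. Hedgehog genes, with 9 higher at P0 and 0 in adult of 17, stand at one end and glucocorticoid and mineralocorticoid response genes, with 0 and 20 of 24, at the other.

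Response genes of the glucocorticoid and mineralocorticoid receptors lay almost wholly on the adult side. Of 24 tested none was higher at P0 and 20 were higher in adult, with a median log2 difference of -0.95. Fkbp5, a chaperone that feeds back on the glucocorticoid receptor, had 144, 150, 292, 342 and 410 CPM (-1.25 ± 0.15, adjusted p = 2.02e-05). Tsc22d3, the leucine zipper protein GILZ that mediates glucocorticoid action, had 45.8 and 45.1 CPM at P0 and 81.7 to 104 CPM in adult (-0.998 ± 0.14). Klf9, a Krüppel-like factor induced by glucocorticoids, had 90.4, 83.2, 192, 179 and 211 CPM (-1.16 ± 0.14). At each of the 3 every adult sample lay above both P0 samples. The stages did not overlap at 96.8% of the genes called higher in adult and at 58.4% of all genes tested. Errfi1 (-1.52 ± 0.21), Cebpd (-1.20 ± 0.14) and Sgk1 (-0.42 ± 0.13) were also higher in adult. The glucocorticoid receptor gene Nr3c1 was itself higher in adult (-0.46 ± 0.13), and the mineralocorticoid receptor gene Nr3c2 was not called (0.07 ± 0.16). The adult count was 20 with promoter windows and with the replicate number as a block, 15 with each nucleus thinned to 1000 open peaks, and 14 without P0 sample 1.

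The steroid receptor letters occurred in peaks of these genes and are shown for that reason. Of the peaks in their windows they lay in 12 of the 85 called higher in adult, 0 of the 9 called higher at P0 and 1 of the 29 without a call, over whole peaks. The 12 belonged to Fkbp5, Zbtb16, Per1, Sgk1, Mt1, Mt2 and Angptl4. The 3 windows of largest fold outside untranslated regions, chosen after their values were seen, are 120 bases of the plus strand of GRCm38 in introns of Zbtb16 (chr9:48723650-48723769 and chr9:48775771-48775890) and near a start of Fkbp5 (chr17:28420268-28420387), with the full site in capitals.
Zbtb16, first intronic peak, higher in adult: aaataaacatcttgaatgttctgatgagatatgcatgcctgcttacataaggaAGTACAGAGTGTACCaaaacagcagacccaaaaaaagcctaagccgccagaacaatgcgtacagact
Zbtb16, second intronic peak, higher in adult: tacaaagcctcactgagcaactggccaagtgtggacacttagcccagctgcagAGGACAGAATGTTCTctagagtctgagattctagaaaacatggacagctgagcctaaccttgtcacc
Fkbp5, higher in adult: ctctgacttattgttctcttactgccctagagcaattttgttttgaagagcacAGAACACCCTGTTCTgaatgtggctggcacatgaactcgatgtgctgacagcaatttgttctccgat
The first Zbtb16 window is in the peak already described, with 27.2% to 35.5% of adult nuclei open. The second Zbtb16 peak was open in 0.688% and 0.262% of P0 nuclei and in 3.88%, 2.99% and 3.78% of adult nuclei (-3.71 ± 0.60). The Fkbp5 peak was open in 2.67% and 2.18% at P0 and in 6.80%, 13.6% and 10.8% in adult (-3.13 ± 0.30). At all 3 the adult shares lay above both P0 shares. In values scaled for depth 91.3% of the peaks called higher in adult had no overlap between stages.

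Clock genes moved with them. Of 22 tested, 15 were higher in adult and 1 at P0 (median -0.72), and the adult count was 10 without P0 sample 2. Nr1d1, the clock repressor REV-ERB alpha, had 78.2, 77.5, 207, 160 and 245 CPM (-1.38 ± 0.16, adjusted p = 2.26e-05). Dbp, an output factor of the clock, had 95.6 and 99.6 CPM at P0 and 222, 174 and 227 CPM in adult (-1.08 ± 0.14), and Per1, a clock gene that also belongs to the glucocorticoid list, had 144, 152, 306, 216 and 346 CPM (-0.96 ± 0.17). In all 3 genes the lowest adult value was that of P56 sample 1. It was still above P0, and 96.8% of the genes called higher in adult had no overlap between stages. Per2 was also higher in adult (-0.98 ± 0.14). Clock, Arntl and Cry1 were not called, with differences of 0.03, -0.29 and 0.35, and Rorb was the gene higher at P0 (1.56 ± 0.21). The hour at which kidneys were taken is not given in the sources used here, so stage and hour cannot be told apart.

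The factors grouped as Nfi and late differentiation gave 19 of 28 higher in adult and none at P0 (median -0.65), and the adult count was 12 without P0 sample 1. The list shares Zbtb16, Klf9, Cebpd and Cebpb with the glucocorticoid list and Hlf and Tef with the clock list. Klf15, a metabolic regulator and glucocorticoid target, had 48.9, 51.6, 144, 122 and 160 CPM (-1.49 ± 0.15), and the lipid regulator Ppara was higher in adult as well (-1.06 ± 0.19). Of the 4 Nfi genes themselves, Nfic was called (-0.63 ± 0.15), whereas Nfia (-0.23), Nfib (0.31) and Nfix (-0.04) were not. Immediate early genes showed 11 of 29 higher in adult and 3 at P0 (median -0.31). Nr4a1 had 61.3 and 60.8 CPM at P0 and 154, 100.9 and 245 CPM in adult (-1.44 ± 0.25), and Zfp36 92.9, 91.5, 208, 182 and 316 CPM (-1.35 ± 0.19), each lowest among adult samples in P56 sample 1. Fos (-0.48) and Egr1 (-0.55) were called and Jun (-0.30) was not. With P56 sample 1 as the only adult sample 6 of that list were called higher in adult, and without it 18.

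Genes of adult kidney fibroblasts followed their name in part. Of 36 tested, 18 were higher in adult and 5 at P0 (median -0.34). Inmt, an indolethylamine methyltransferase, had 4.36, 5.16, 25.3, 24.8 and 39.0 CPM (-2.64 ± 0.27), Gpx3, a secreted glutathione peroxidase, 33.8, 31.8, 77.0, 77.2 and 116 CPM (-1.46 ± 0.17), and the dipeptidase Dpep1 52.1, 47.6, 96.5, 112 and 126 CPM (-1.17 ± 0.14). All adult samples exceeded both P0 samples at these genes, and 96.8% of the genes called higher in adult had no overlap between stages. Epo, the erythropoietin gene, had 161, 171, 221, 214 and 267 CPM (-0.50 ± 0.14), but 8 of its 12 peaks also lie in another gene's window, and its peak of lowest p is a start-site peak whose nearest coding start is that of Gnb2. Fap, the fibroblast activation protein, was on the list but went the other way, with 32.2 and 29.5 CPM at P0 and 4.25 to 4.60 CPM in adult (2.79 ± 0.27). Without either P0 sample the count of that list higher in adult was 12, and with thinned nuclei it was 10. C7, another fibroblast gene, was not called (-0.21 ± 0.18).

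Of 52 interstitial matrix genes 15 were higher at P0 and 12 in adult (median 0.05), a near even split that became 20 and 5 with promoter windows. Col3a1 (0.63 ± 0.16) and fibronectin Fn1 (0.76 ± 0.15) were higher at P0, and Lum, a small proteoglycan, by 2.42 ± 0.45 on low counts of 14.0, 9.98, 1.15, 2.82 and 2.13 CPM. Col1a1 (69.9, 73.8, 67.8, 58.1 and 68.1 CPM, 0.17 ± 0.14) and Col1a2 (0.29 ± 0.16) were not called. Timp3, an inhibitor of matrix proteases, had 114, 107, 318, 251 and 380 CPM (-1.52 ± 0.16), and Tnxb, a tenascin, 50.2 and 44.5 CPM at P0 against 98.6 to 126 CPM in adult (-1.27 ± 0.15). Without P0 sample 1 the matrix counts were 8 and 7. Among genes of mural, mesangial and renin cells 10 of 35 were called in each direction (median 0.03), which became 15 at P0 and 6 in adult with promoter windows, and 7 and 2 without P0 sample 1. Acta2, smooth muscle actin, was higher at P0 (56.7, 53.0, 20.7, 39.5 and 38.3 CPM, 0.66 ± 0.18), Myh11 was not called (0.19 ± 0.16), and the renin gene Ren1 had 8.26 and 8.45 CPM at P0 and 7.89 to 18.4 CPM in adult without a call. Retinoic acid genes gave 6 and 5 of 17 (0.05), or 3 and 1 with thinned nuclei, with the synthetic enzyme Aldh1a2 higher at P0 (1.16 ± 0.18) and the receptor Rxra in adult (-0.89 ± 0.14). Of 38 complement and antigen presentation genes, 4 were higher at P0 and 13 in adult (-0.30), or 0 and 3 without P0 sample 2, among them the histocompatibility genes H2-K1 (-1.78 ± 0.25) and H2-D1 (-1.67 ± 0.27). Near-identical histocompatibility genes may exchange reads, so these values are uncertain.

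Markers of other cell types also differed by stage within stroma 2. Of the 11 proximal tubule markers tested 8 were higher in adult and 1 at P0, and of 8 loop and distal tubule markers 3 and 1. With thinned nuclei 1 proximal tubule marker was higher in adult, and without P56 sample 1 there were 12, more markers then passing the filter on low counts, and 7 loop and distal tubule markers were higher in adult. Umod, made by the thick ascending limb, had 1.38, 1.53, 20.7, 4.51 and 14.9 CPM (-3.00 ± 0.52), and the tubule factor Hnf4a 30.1, 30.2, 78.2, 51.9 and 73.8 CPM (-1.13 ± 0.16). Both were lowest, among adult samples, in P56 sample 1. Of 9 nephron progenitor markers 5 were higher at P0 and none in adult, though Six2 was not called (0.65 ± 0.31), and of 9 podocyte markers 5 were higher at P0 and 1 in adult. Among the progenitor markers called, Meox1 is also a stromal marker here and Itga8 is on the mural, mesangial and renin list. The remaining marker lists gave 2 and 0 of 6 for the collecting duct and 5 and 4 of 13 for endothelium. The endothelial counts were 2 and 3 without P56 sample 1 and 1 and 2 with promoter windows. With DESeq2 1 endothelial marker was higher at P0. Immune cells gave 2 and 0 of 6, and glia and neurons 0 and 0 of 4. The part of such signal in the stage differences was not tested. With P56 sample 1 as the only adult sample, an alternative chosen after seeing the data in which the spread comes from the 2 P0 samples alone, the calls higher in adult were 20 for the glucocorticoid list, 13 for the clock, 20 for the Nfi list and 20 for adult fibroblasts, and those at P0 were 7 for Hedgehog and 17 for axon guidance. The proximal tubule list then gave 3 higher in adult, so that the alternative does not separate the lists from tubule signal.

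The P21 sample was next placed between newborn and 8 weeks. Calls made from P0 against P56 alone left it out. Of 23751 peaks higher at P0 in that comparison, the P21 value was nearer the P56 mean than the P0 mean at 76.0%, and of 19439 peaks higher at P56 at 72.2%. For genes the shares were 77.4% of 4108 and 80.1% of 3136, while over all peaks and genes tested they were 65.6% and 66.5%. The P21 sample lay on the adult side of both P0 samples at 96.7%, 86.8%, 96.0% and 94.4% of the same sets. For this measure there is no share over all features, and the sets were called with the same P0 samples. Its size therefore cannot be judged against a background. Between P21 and P56 no peak and no gene passed edgeR's test in a fit with 3 groups, with 2020 of 53951 peaks and 788 of 20780 genes at an unadjusted p under 0.05, and DESeq2 also called none, with 583 and 306. With 1 sample at P21 this says little about differences between 3 and 8 weeks.

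The stage difference of stroma 2 was then compared with that of stroma 1 and of endothelium, by the interaction of cell type and stage with the sample as a block. Against stroma 1, 2098 of 21620 genes differed, or 9.7%, of which 898 had a difference more positive in stroma 2 and 1200 more negative. Against endothelium 2961 of 21693 did, or 13.6%, 1507 and 1454. At peaks 693 and 4367 of 66107 differed between the stromal clusters. Stroma 1 had only 90 to 107 nuclei in each adult sample, and its 16 stromal markers summed to 1255 and 1222 CPM at P0 but to 551, 656 and 557 CPM in adult, against 399, 396 and 328 CPM in the endothelium of the same adult samples. Its proximal tubule markers rose to 906, 328 and 729 CPM in adult from 217 and 239 CPM. These levels move with the differences below, and their part in them was not tested.

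Several stromal genes without a fall from P0 to adult in stroma 2 fell in stroma 1. Fbln5, an elastic fibre protein, had a log2 difference of -0.69 in stroma 2 and 1.72 in stroma 1, and the 2 differed by -2.37 ± 0.20 (adjusted p = 6.43e-14). For Pdgfra the values were -0.36 and 1.04 (-1.39 ± 0.20), for Pdgfrb -0.52 and 0.68 (-1.18 ± 0.17), and for Col1a1 0.17, not called in stroma 2, and 1.14 (-0.98 ± 0.23). With promoter windows none of Fbln5, Pdgfra and Pdgfrb was called higher in adult in stroma 2. Tcf21 was higher at P0 in both, at 0.74 and 2.83 (-2.05 ± 0.35), and all 3 of its peaks also lie in another gene's window. In the lists, 24 of 53 interstitial matrix genes and 10 of 16 stromal markers had a difference more negative in stroma 2, against 1 and 0 more positive. Mural genes went the other way against stroma 1, with 10 of 40 more positive and 2 more negative, but not against endothelium, with 4 of 37 and 11. Acta2 was at 0.66 in stroma 2 and at -0.35 in stroma 1, where it was not called (difference 1.104 ± 0.24), and Sfrp2 had 2.06 and -0.24 (2.40 ± 0.44).

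Other differences were of like size in the 3 cell types. Fkbp5 was at -1.25 in stroma 2, -1.22 in stroma 1 and -1.05 in endothelium, with an interaction of -0.04 ± 0.13 against stroma 1 and -0.14 ± 0.12 against endothelium. Nr1d1 was at -1.38, -1.17 and -1.55 (-0.24 ± 0.14 and 0.24 ± 0.12), and Per1 at -0.96, -0.88 and -1.04 (-0.11 ± 0.12 and 0.15 ± 0.11). Gli2 was at 1.44, 1.60 and 1.64 (-0.04 ± 0.22 and -0.19 ± 0.28). None of these interactions passed the test, and their standard errors leave room for moderate differences. Zbtb16 differed by more in stroma 2 than in either, at -2.31, -1.91 and -1.74 (-0.39 ± 0.12, adjusted p = 0.0261, and -0.50 ± 0.13, adjusted p = 0.0111). Adap2 was at -2.36, -1.45 and -0.36 (-0.94 ± 0.22 and -1.89 ± 0.25), and Ankrd44 at -1.74, -0.75 and -0.85 (-0.93 ± 0.12 and -0.83 ± 0.12). Fat4 was close to stroma 1, at 1.38 and 1.58 (-0.09 ± 0.24), and apart from endothelium at 0.10 (1.38 ± 0.15, adjusted p = 1.99e-07).

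**Figure D5:**
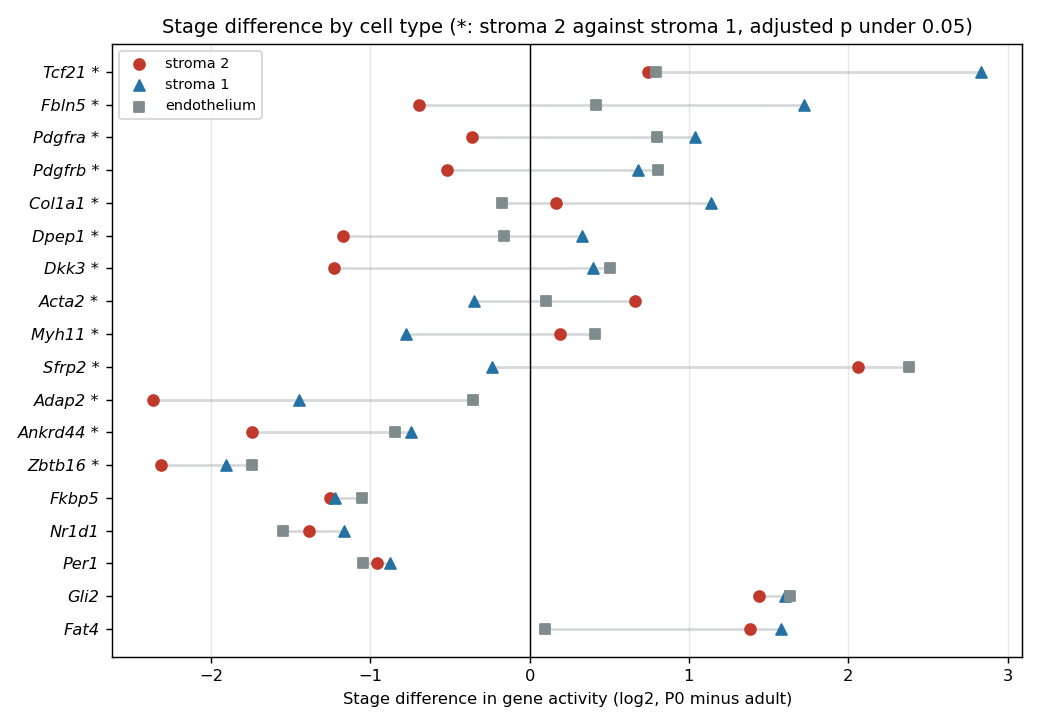
Stage difference in gene activity (log2, P0 minus adult, x axis) of 18 genes, chosen after their values were seen, in stroma 2 (circles), stroma 1 (triangles) and endothelium (squares), with an asterisk where the stroma 2 and stroma 1 differences differed at an adjusted p under 0.05. Fbln5 lies at -0.69 in stroma 2 and 1.72 in stroma 1, whereas the 3 symbols of Fkbp5 lie between -1.25 and -1.05.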

How the data were processed

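Nuclei of 5 kidney samples were profiled by snATAC-seq. The authors aligned the reads to mm10 with Cell Ranger ATAC (1.1.0), filtered barcodes, joined the samples with SnapATAC and Harmony, clustered the nuclei and called peaks with MACS2 on nuclei pooled by cell type. The deposited count matrix was binarized by the authors, so that a count of 1 stands for a nucleus with a fragment in a peak, without scaling for depth. The treatment of doublets was not given in the sources used here. Clusters rest on the same accessibility data as the values tested.

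From these files open calls were summed per sample, and samples were grouped by the labels. Peaks were assigned to genes of the GENCODE M21 annotation (32093 genes) on GRCm38, and 10.4% of the peaks in a gene window lay in the window of more than 1 gene. The fit was edgeR (4.0.16) with limma (3.58.1) in R (4.3.3), a filter on low counts (minimum 10, minimum total 15), TMM factors, quasi-likelihood tests and Benjamini-Hochberg adjustment over all features tested. P0 samples were compared with the P21 and P56 samples as 1 adult group. Stage differences between cell types were tested as interactions with the sample as a block. DESeq2 (1.42.0) and other filters, scalings, gene windows, thinned nuclei and samples left out in turn were the alternatives. The script was tested on simulated data. No per-sample column was left unmapped (0).

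Named genes were the 12 of largest fold in each direction that were protein-coding, past the threshold, without overlap between stages and at 50 CPM or more in the higher stage. From each list 4 key members and up to 3 called genes of largest fold in each direction were added without these limits. Named peaks were 10 in each direction, past the threshold, without overlap and open in 10% of nuclei in the higher stage. Some items are not reported here. Genes outside these rules were chosen after their values were seen, and the members and lists were chosen with earlier results of these data known. Intervals cover counting error only (exact Poisson, 95%).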

Additional observations from a re-analysis of the deposited data

Results flagged for a closer look

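In 11 named genes the stage difference of stroma 2 differed from that of both stroma 1 and endothelium in the same direction and by 1 or more on the log2 scale, each past the interaction test of edgeR. Against stroma 1 the interaction was -2.369 for Fbln5, -1.803 for Mt2, -1.619 for Dkk3, -1.502 for Dpep1, -1.389 for Pdgfra, -1.184 for Pdgfrb, -1.019 for Cebpd and -1.013 for Fmo2, and against endothelium it was -1.08, -2.05, -1.69, -1.003, -1.08, -1.25, -1.31 and -1.60 in the same order. For these 8 genes the adult side was favoured more in stroma 2. In stroma 1 the 16 stromal markers summed to 1255 and 1222 CPM at P0 and to 551 to 656 CPM in adult. In endothelium they summed to 538 and 532 CPM and to 328 to 399 CPM. In stroma 2 the sum stayed within 1100 to 1215 CPM. The part of these falls in the interactions was not tested. With promoter windows Dkk3, Pdgfra and Pdgfrb were not called in stroma 2, and Fbln5 was not called higher in adult. The interaction was 1.003 for Ano4, 1.017 for Adcy2 and 1.715 for Cdh5 against stroma 1, and 2.42, 1.71 and 1.68 against endothelium.

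Cdh5, the cadherin of endothelial junctions, is a marker of endothelium and is on no stromal list. It was 1 of 5 endothelial markers called higher at P0 in stroma 2, a count that was 1 with DESeq2 and with promoter windows. Of the 13 endothelial markers, 7 had a difference more positive in stroma 2 than in endothelium and none more negative, and against stroma 1 the counts were 4 and 1. In endothelium these markers summed to 2349 and 2245 CPM at P0 and to 3157, 3495 and 3516 CPM in adult. In stroma 2 they summed to 560 and 550 CPM at P0 and to 618 to 690 CPM in adult. The part of these levels in the counts was not tested. Over all genes 1507 and 1454 of 21693 differed from endothelium (13.6% in either direction) and 898 and 1200 of 21620 from stroma 1 (9.7%). Mt2 and Cebpd belong to the glucocorticoid list of 24 genes, of which 7 were more negative in stroma 2 and 2 more positive against stroma 1, and 7 and 3 against endothelium. Errfi1, Lpin1 and Zbtb16 also passed both tests as more negative, and Fkbp5 and Per1 passed neither. All 3 peaks of Mt2 and all 8 peaks of Dpep1 also lie in the window of another gene.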

How the results depend on the processing

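Direction was kept more often than the call, as far as a feature could still be tested. Of the 27094 peak calls 96.7% kept their direction with loess offsets. With nuclei thinned to 1000 open peaks 6880 of them could be tested, of which 97.0% did, and with promoter windows 6154 of the 7921 gene calls could be, of which 96.0% did. The number of features tested differed between settings, so the counts below do not share a base. It was 53951 peaks in the main fit, 297658 without a filter, 26647 with equal nuclei, 16089 thinned and 105355 without P56 sample 1. For genes it was 20780 in the main fit, 18166 with equal nuclei, 15516 thinned and 17283 with promoter windows. The count of peaks higher at P0 (14288) was 40232 without a filter, 4376 with equal nuclei per sample and 1563 with thinned nuclei, and 7587 to 25938 with a sample left out. The count higher in adult (12806) was 8296 with DESeq2, 4286 with equal nuclei, 1691 thinned and 4334 to 20619 with a sample left out. For genes higher at P0 (4378) the counts were 2741 with DESeq2, 2625 with equal nuclei, 1560 thinned, 2884 with promoter windows and 1839 to 5530 with a sample left out, and for genes higher in adult (3543) they were 1957 with equal nuclei, 1135 thinned and 906 to 5364. Of the counts with a sample left out, the lowest came without a P0 sample, where the single P0 sample is assumed to vary like the adult ones, and the highest without P56 sample 1. With P56 sample 1 as the only adult sample, a choice made after seeing the data, 20462 and 15912 peaks and 4165 and 3776 genes were called. Without a filter the median log2 difference of all peaks was 0.585.

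Samples share replicate numbers between P0 and P56 in the labels, but nothing says that a number marks a shared animal or day, and the deviations of samples with the same number correlated at 0.155 over peaks and 0.18 over genes. With the replicate number as a block 13009 and 11274 peaks and 4032 and 3136 genes were called.

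Differences between cell types depended more on the test. Against stroma 1, peaks with a more positive difference in stroma 2 (693) numbered 130 with DESeq2, 241 without a filter, 423 without the sample block and 125 to 445 with a sample left out, and those with a more negative one (4367) 522 with DESeq2 and 2133 to 3125. The gene counts (898 and 1200) were 227 and 369 with DESeq2, 249 and 505 without the block, and 384 to 766 and 632 to 1004 with a sample left out. Against endothelium (1507 and 1454) they were 289 and 398, 382 and 465, and 537 to 1334 and 625 to 1488.

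Of 219 named genes, 112 had the same call under every alternative that gave them a value, and thinned nuclei, equal nuclei, promoter windows and peaks of a single gene gave some of them none. A sign changed 5 times. Counting only peaks of a single gene gave 0.41 for Aldh1a1, -0.933 for Egfl7 and 0.644 for Peg3, and promoter windows gave 0.189 for Dkk3 and 0.0182 for Kdr. The cause was not tested. The shallower adult sums (4.79 to 10.8 times) limit what can be seen at weakly open regions.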
